A study of Mus musculus with 24 samples.

Results

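Lungs taken from mice 14 days after birth were compared with lungs taken 1 day after birth, across all genes of a whole-genome array. The day 14 group held 5 arrays and the day 1 group held 5 arrays, chosen by the age in the sample labels, out of 24 arrays in all. The other 14 arrays came from lungs of days 4, 7 and 42, and they entered the fit and the courses over age. Every group was whole lung of healthy C57BL/6 mice, with no genotype, treatment or agent that sets the groups apart, so that age was the only labelled difference. The labels call each sample a biological replicate of its age. They give neither sex nor whether 1 animal or several made up a sample, so p-values measure the spread between these samples. Total RNA was labelled with the dye Cy3 and hybridized to 1-colour Agilent arrays, 1 sample per array.

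The mouse lung is born before it has alveoli. The wide air sacs of the newborn are subdivided over the following weeks by ridges of tissue, the secondary septa, which grow out under the direction of myofibroblasts that deposit elastin at their tips. While septa form, epithelium, fibroblasts and capillaries multiply, type 1 cells spread into the thin gas-exchange surface, and type 2 cells secrete surfactant. Septa are later thinned as cell division ends, and the immune cells of the lung build up after birth. Because the tissue was profiled whole, a lower signal from fewer cells of a type and from less RNA per cell cannot be told apart.

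Levels are given as log2 of the background-corrected signal minus the 75th percentile of that array, so that 0 stands for the 75th percentile. Differences are log2 of day 14 minus day 1 from a limma fit over all arrays, with the standard error after the ± sign, and a gene passed the test at an adjusted p below 0.05. The 75th percentile of signal was 996 to 1492 intensity units on the day 14 arrays and 476 to 1472 on the day 1 arrays. In the series 5 arrays were dim, with a 75th percentile of 979 or less. Among them were day 1 replicates 4 and 5 (476 and 693), and none was from day 14, whose replicate 5 lay just above the limit at 996. Day 14 replicate 3 had 79.7% of its spots well above background, against 61.4% to 64.5% on the other day 14 arrays. The first principal component (49.8% of the variance) separated the dim arrays from the rest, and among the remaining arrays the second (27.9%) separated days 14 and 42 from days 1, 4 and 7, with day 14 replicate 5 between them. Every finding was therefore also computed without the dim arrays, and the main counts also without day 14 replicate 5. Lung identity was plain on all 10 arrays. The surfactant gene Sftpc had levels of 8.75, 8.68, 8.58, 8.63 and 8.80 at day 14, against 8.90, 8.69, 8.38, 10.05 and 9.42 at day 1, among the brightest genes. The club cell secretoglobin Scgb1a1 had levels of 8.17, 8.14, 8.09, 8.05 and 7.61 at day 14, against 7.16, 6.53, 6.73, 8.04 and 7.56 at day 1.

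**Figure D1:**
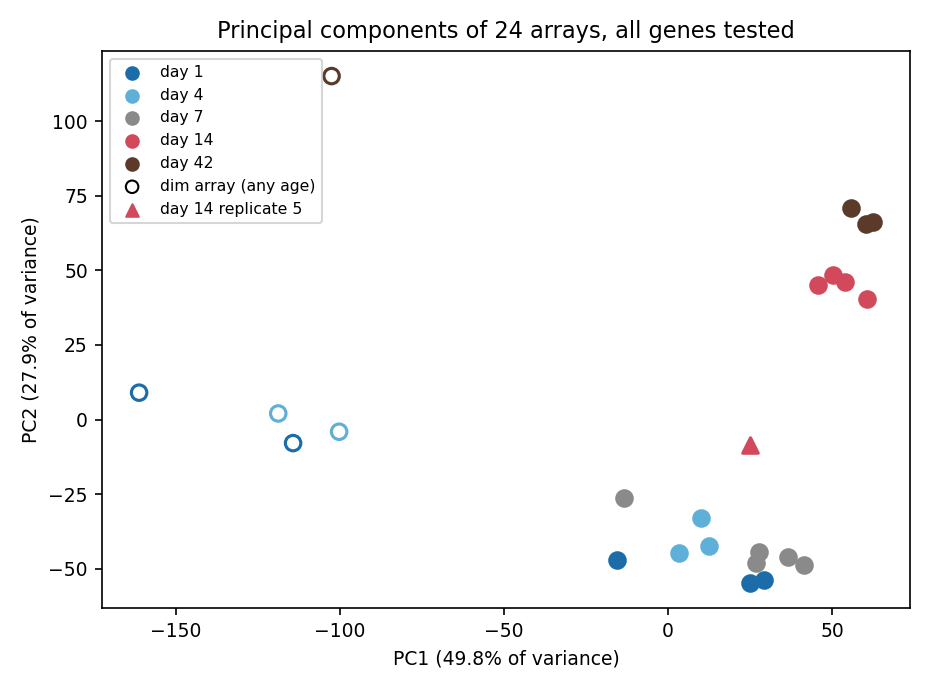
Each point is 1 of 24 arrays, placed by the first and second principal components of all 15895 genes tested, coloured by postnatal day. The 5 open points are the dim arrays, which lie to the left of the rest, and the triangle is day 14 replicate 5, which lies between day 7 and the other 4 day 14 arrays on the vertical axis.

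Of 15895 genes tested, 4353 differed between day 14 and day 1 (27.4%). Of these, 1725 were higher at day 14 (10.9% of genes tested) and 2628 were lower (16.5%). The fitted fold was 2 or more for 2457 genes (15.5%), 1023 of them higher and 1434 lower. The day 14 and day 1 arrays did not overlap for 2700 genes (17.0%), of which 2498 also passed the test. Without the dim arrays 6564 genes passed (41.3%), 3373 higher (21.2%) and 3191 lower (20.1%), and 3960 genes passed both ways. All 4353 genes kept their direction without the dim arrays. The balance of directions depended on the arrays and on the scaling. Genes higher at day 14 made up 39.6% of those called, 51.4% without the dim arrays and 22.1% when arrays were scaled by their median. The median difference over all genes was -0.11, moved to 0.04 without the dim arrays and to -0.38 with median scaling. Counts of genes in a list are best read against the shares over all genes and against these shifts.

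The other ages place the change in time, as a description, since the genes were chosen for their difference between the outer ages. Among the 1023 genes at least 2-fold higher at day 14, the day 7 mean was past the midpoint of the difference for 183 when dim arrays were left out, and the median share of the difference reached by day 7 was 28.4%. Among the 1434 genes at least 2-fold lower, 309 were past the midpoint by day 7 and the median share was 32.7%. With all arrays these shares were 38.8% and 48.3%, and 380 and 681 genes were past the midpoint. At day 42 a still larger difference from day 1 was seen for 682 of the 1023 genes and for 926 of the 1434, again without dim arrays. These counts were 548 and 574 with all arrays, and 574 and 675 without dim arrays and day 14 replicate 5, so that for the lower genes the majority turned. Day 14 replicate 5 was the day 14 array nearest to day 1 for 876 of the 1023 higher genes (85.6%) and for 1226 of the 1434 lower genes (85.5%).

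The largest rise measured on both sides was that of Inmt, an N-methyltransferase of indole amines. Inmt had levels of 7.93, 8.0, 7.81, 7.79 and 4.93 at day 14, against 0.67, -0.17, -0.50, 1.94 and 1.68 at day 1. All 5 day 14 arrays lay above all day 1 arrays, with replicate 5 lower than the other 4, and the difference was 6.56 ± 0.53 (94.6-fold, adjusted p = 2.0e-08). Lrat, which esterifies retinol for storage, had levels of 0.71, 0.42, 0.68, 0.34 and -2.60 at day 14, against -5.00, -4.98, -4.46, -6.59 and -7.10 at day 1, a difference of 5.53 ± 0.72. Without dim arrays the Lrat difference was 4.72. Chil3, a chitinase-like protein that lung macrophages secrete, had levels of 6.25, 6.46, 6.03, 6.53 and 6.54 at day 14, against 0.62, 0.89, 1.74, 0.37 and 1.79 at day 1. The 5 day 14 arrays of Chil3 lay within 0.51 of each other, replicate 5 included, and its difference of 5.28 ± 0.34 had the smallest adjusted p of all genes (4.7e-09). Its paralog Chil4 differed by 4.90 ± 0.56, and the probes of such close paralogs may read each other. The chemokine Cxcl14 had levels of 4.78, 4.95, 4.86, 4.82 and 1.89 at day 14, against -0.16, -0.96, -0.78, 0.89 and 0.40 at day 1, and Serpina3n, a serine protease inhibitor of the acute phase, differed by 4.93 ± 0.63. The other rises given here, among the 12 largest, were those of Gm4956 (5.21 ± 0.56), Ms4a4d (4.46 ± 0.61), Cstdc2 (4.44 ± 0.49), the fatty acid-binding protein Fabp1 (4.43 ± 0.60) and the glutamate receptor subunit Gria1 (4.08 ± 0.35). These 12 were taken among genes well above background on at least 3 arrays of each age whose groups did not overlap. The adipsin gene Cfd (7.15 ± 1.28) and the stromelysin Mmp3 (6.13 ± 0.46) were well above background on 1 day 1 array each and fall outside them.

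By the same choice, the largest fall was that of Dlk1, an imprinted gene for a Notch-like membrane protein that holds back differentiation. Dlk1 had levels of -1.36, -4.09, -2.18, -3.84 and 0.76 at day 14, against 4.46, 3.70, 4.2, 5.76 and 5.20 at day 1. The groups did not overlap, the day 14 arrays spread over 4.85 log2 units, and the difference was -6.81 ± 0.74 (112-fold, adjusted p = 5.1e-07). The replication-dependent histones H1f5 and H2ac4 followed, at -5.34 ± 0.47 and -5.31 ± 0.46. H1f5 had levels of -2.13, -2.32, -1.95, -2.34 and -0.22 at day 14, against 3.19, 2.76, 2.91, 4.96 and 3.91 at day 1. Both histone genes were highest on the dim day 1 arrays, and without dim arrays the differences were -4.74 and -4.65. The mast cell chymase Mcpt4 fell by 4.85 ± 0.51. Lrrc15, a leucine-rich repeat protein of fibroblast membranes, had levels of -4.25, -4.19, -4.22, -4.33 and 0.03 at day 14, against 1.19, 0.65, 0.92, 1.81 and 1.29 at day 1, so that 4 day 14 arrays lay well below day 1 while replicate 5 lay within 0.63 of the lowest day 1 array. The others among the 12 were Pimreg (-4.87 ± 0.51), the potassium channel subunit Kcne1l (-4.72 ± 0.55), the Max-binding factor Mxd3 (-4.67 ± 0.51), Tmem121 (-4.63 ± 0.46), the scaffold protein Iqgap3 (-4.41 ± 0.44), the spindle protein Fam83d (-4.38 ± 0.43) and the kinetochore protein Cenpm (-4.33 ± 0.54).

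**Figure D2:**
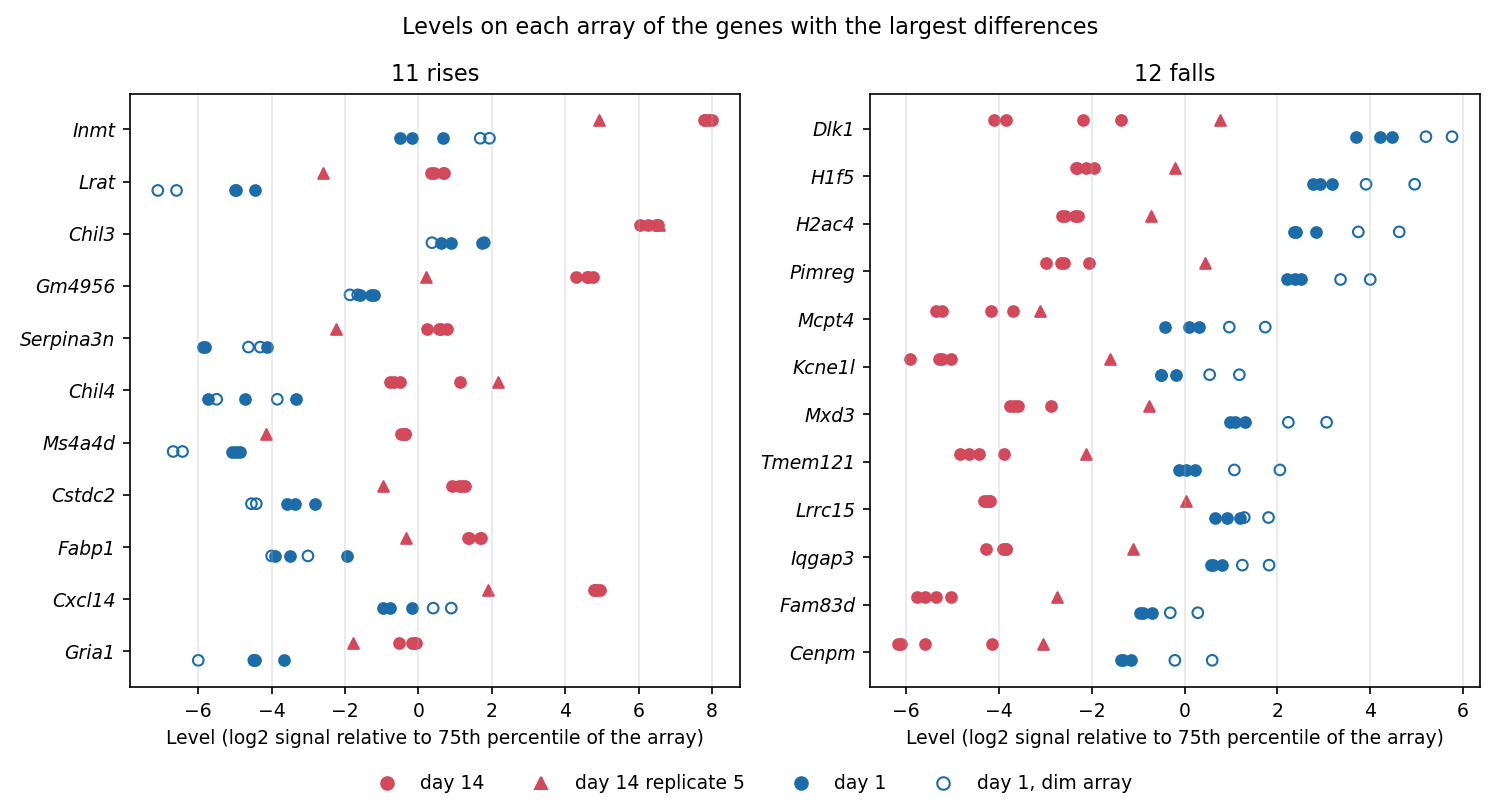
Levels on each of the 10 arrays (log2 signal relative to the 75th percentile of the array) for 11 of the 12 largest rises and the 12 largest falls, as described in the text, all without overlap between the ages. Day 14 is drawn in red above day 1 in blue, the triangle is day 14 replicate 5 and open circles are the dim day 1 arrays. Replicate 5 is the day 14 array closest to day 1 in most rows, but not for Chil3 and Chil4.

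A further 29 genes were well above background on all 5 day 14 arrays and on 0 of 5 day 1 arrays, and 10 genes showed the reverse. For these the fold is a lower bound, set against the dimmest signal still above background. The 6 brightest at day 14 were Wfdc10, of the whey acidic protein family of protease inhibitors (at least 18.1-fold higher), Klra4, Klra7 and Klra8, receptors of the Ly49 family on natural killer cells (at least 10.9-fold, 10.6-fold and 7.75-fold higher), the arginine methyltransferase Prmt8 (at least 7.53-fold) and the protease inhibitor Eppin (at least 6.76-fold). The Klra genes are near-identical copies, so their probes may not be separate readings. The 6 brightest at day 1 that were not well above background at day 14 were the mast cell protease pseudogene Mcpt-ps1 (at least 9.31-fold lower), the nociceptin precursor Pnoc (6.46-fold), Gprin1 (6.42-fold), the transcription factor Klf14 (5.57-fold), the DNA repair helicase Brip1 (4.55-fold) and Vwa2 (3.35-fold), each as a lower bound.

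Genes of cell division were lower in nearly every member. Of 28 genes of mitosis and cytokinesis, 25 were lower at day 14 and 0 higher, with a median difference of -3.06 against -0.11 over all genes tested. The other 3 were Bub1, Nusap1 and Hmmr, at -1.66, -1.18 and -0.54. Without dim arrays all 28 passed, with a median of -3.32. The mean level of the list was -2.10 to -0.28 on the day 14 arrays and 0.93 to 1.87 on the day 1 arrays, and the -0.28 was that of replicate 5. Cdk1, the kinase that drives entry into mitosis, had levels of -3.01, -3.01, -2.90, -2.79 and -0.29 at day 14, against 1.67, 1.52, 1.66, 2.30 and 2.41 at day 1. The day 14 arrays lay below all day 1 arrays, with replicate 5 in between, and the difference was -4.31 ± 0.37 (19.8-fold). Aurkb, the kinase that corrects attachments of chromosomes to the spindle, fell by 4.62 ± 0.38, with 1 day 14 array well above background, and the mitotic cyclin Ccnb1 by 4.05 ± 0.35. Of 25 genes of DNA replication, 24 were lower and 0 higher, with a median of -2.35, and Pola1 missed the test at -0.88. Tk1, the thymidine kinase that feeds DNA synthesis, fell by 3.93 ± 0.40, the replication and methylation factor Uhrf1 by 3.80 ± 0.40, the origin-binding Orc1 by 3.60 ± 0.36 (well above background on 1 day 14 array) and Gins2, a part of the replicative helicase, by 3.57 ± 0.39. Also among the 6 genes with the smallest adjusted p were the recombination gene Rad54l (-3.01 ± 0.22), the kinetochore gene Cenpn (-3.09 ± 0.22) and the replication factor Ticrr (-3.87 ± 0.28). Foxm1, the transcription factor of the late cell cycle, fell by 3.68 ± 0.36. The median level of the mitosis list was 2.03, 1.40, 1.06, -0.87 and -1.20 at days 1, 4, 7, 14 and 42.

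Promoters are shown for division genes because members of both lists moved together. The 150 bases before the RefSeq transcription start are printed 5′ to 3′ on the gene's strand, in build GRCm38.p6, with matches in capitals. In the mitosis genes the capitals mark the cell cycle homology region (TTTGAA, or TTCAAA on the other strand) and the CCAAT box (CCAAT or ATTGG).
Cdk1: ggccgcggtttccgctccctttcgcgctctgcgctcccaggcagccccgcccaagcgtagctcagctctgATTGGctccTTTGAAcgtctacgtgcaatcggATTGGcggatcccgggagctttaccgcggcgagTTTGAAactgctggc
Ccnb2: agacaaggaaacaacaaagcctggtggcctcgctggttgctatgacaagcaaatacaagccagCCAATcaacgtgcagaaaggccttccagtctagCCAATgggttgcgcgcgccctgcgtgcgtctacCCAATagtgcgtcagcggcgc
Cdc20: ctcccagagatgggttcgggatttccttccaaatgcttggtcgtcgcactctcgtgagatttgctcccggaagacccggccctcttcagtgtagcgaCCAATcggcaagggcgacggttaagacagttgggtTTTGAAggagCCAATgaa
Top2a: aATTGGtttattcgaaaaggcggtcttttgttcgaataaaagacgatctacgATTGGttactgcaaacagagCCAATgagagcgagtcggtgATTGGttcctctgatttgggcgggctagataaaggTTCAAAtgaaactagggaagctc
In the replication genes the capitals mark 1 of the E2F motifs TTTGGCGC, TTTCCCGC and TTTCGCGC, on either strand.
Mcm5: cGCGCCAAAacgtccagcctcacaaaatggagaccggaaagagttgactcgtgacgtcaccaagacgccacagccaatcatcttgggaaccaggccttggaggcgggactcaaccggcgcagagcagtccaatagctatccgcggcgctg
Cdc6: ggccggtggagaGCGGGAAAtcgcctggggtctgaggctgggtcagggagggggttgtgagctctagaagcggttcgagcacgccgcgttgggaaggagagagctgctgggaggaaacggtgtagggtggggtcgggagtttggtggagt
These stretches lie at chr10:69352913-69353062 (minus strand) for Cdk1, chr9:70421555-70421704 (minus strand) for Ccnb2, chr4:118437344-118437493 (minus strand) for Cdc20, chr11:99024190-99024339 (minus strand) for Top2a, chr8:75109359-75109508 (plus strand) for Mcm5 and chr11:98908001-98908150 (plus strand) for Cdc6. All 6 genes were lower at day 14 and were picked for print after their values were seen. Differences were -3.63 for Ccnb2 (a mitotic cyclin), -3.65 for Cdc20 (an activator of the anaphase-promoting complex), -3.26 for Top2a (the topoisomerase that untangles chromosomes), -3.27 for Mcm5 (a helicase subunit) and -2.99 for Cdc6 (a helicase loader). The matches in Cdk1 begin 80, 71, 48 and 15 bases before the start, as CCAAT box and homology region by turns. Ccnb2 has 3 CCAAT boxes that begin 87, 54 and 21 bases before the start.

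Counted over windows from 250 bases before to 50 bases after the start, the cell cycle homology region was present in 19 of 24 mitosis genes with a window (79.2%), in 2 of 22 replication genes (9.1%) and in 1904 of 12622 genes tested (15.1%). The CCAAT box was present in 21 of the 24 (87.5%), 14 of the 22 (63.6%) and 5326 of all genes (42.2%). The E2F motifs were present in 9 of the 22 replication genes (40.9%), 2 of the 24 mitosis genes (8.3%) and 438 of all genes (3.5%). Both strands were searched, and a window with several matches of a motif counted as 1 gene. A match is a string of letters and does not show binding.

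**Figure D3:**
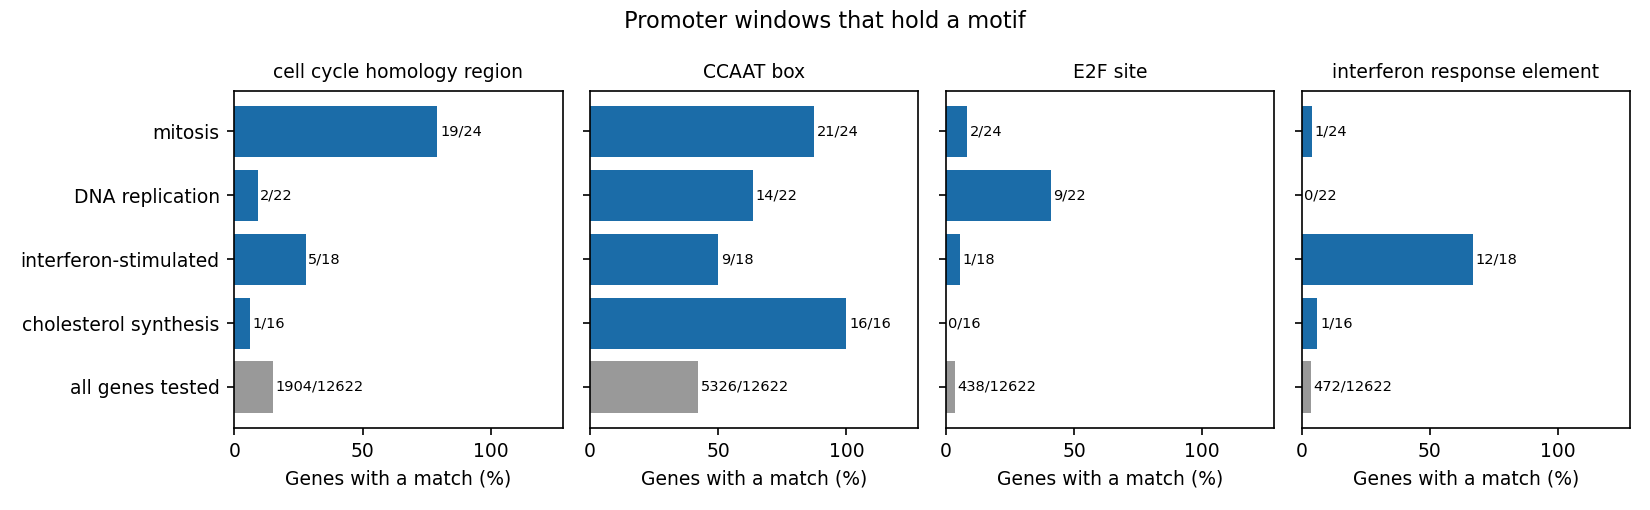
Bars give the percent of genes whose promoter window holds each of 4 motifs on either strand, for 4 gene lists and for all 12622 genes tested that have a window, with the counts beside each bar. The homology region is found in 19 of 24 mitosis genes, the E2F motifs in 9 of 22 replication genes and the interferon response element in 12 of 18 interferon-stimulated genes.

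Imprinted genes, many of which set fetal growth, were lower as a group. Of 17 tested, 12 were lower and 0 higher, with a median of -1.32, and without dim arrays 13 were lower with a median of -1.49. Next to Dlk1 stood Mest, an imprinted hydrolase, with levels of 1.94, 1.93, 1.5, 1.67 and 3.78 at day 14, against 5.61, 5.46, 5.44, 5.53 and 6.02 at day 1 and a difference of -3.45 ± 0.29. Magel2, a gene of the Prader-Willi region, had levels of -4.31, -4.40, -4.91, -4.36 and -4.24 at day 14, against -1.45, -1.97, -1.74, -1.44 and -1.04 at day 1. Its groups lay 2.27 apart at their nearest arrays, replicate 5 sat close to the other day 14 arrays, and its difference of -2.92 ± 0.20 was among the 6 smallest adjusted p. Igf2, the fetal insulin-like growth factor, fell by 2.80 ± 0.29, but it was dim on this probe, well above background on 2 of 5 day 14 arrays. Of 8 fetal RNA-binding and Hmga genes, 5 were lower, among them the Igf2 mRNA-binding Igf2bp3 (-2.20 ± 0.31) and Igf2bp1 (-1.70 ± 0.27). In the wider IGF axis 3 of 16 genes were higher and 2 lower. The pappalysins, proteases that free IGF from its binding proteins, moved apart. Pappa2 had levels of -2.33, -3.01, -2.82, -3.13 and 1.83 at day 14, against 1.82, 1.65, 2.00, 1.10 and 2.26 at day 1, where replicate 5 lay within the day 1 range, and differed by -3.66 ± 0.60, while Pappa differed by 2.20 ± 0.56, or 1.19 without dim arrays. The binding protein genes Igfbp3 and Igfbp6 rose by 1.30 ± 0.28 and 1.75 ± 0.42.

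Among epithelial genes, 0 members of the type 1, type 2 and club cell lists were lower. Of 23 type 2 and surfactant genes, 7 were higher and 0 lower (median 0.10), and 13 were higher without dim arrays (median 0.39), but 3 with median scaling, which turned the median to -0.17. Sftpc did not pass, at -0.40 ± 0.26, and neither did Sftpb, the surfactant protein that spreads the film, at -0.15 ± 0.30. Sftpb turned to 0.39 and past the test without dim arrays, and its levels were 7.30, 7.32, 7.29, 7.24 and 7.11 at day 14, against 7.21, 6.58, 6.79, 8.53 and 7.88 at day 1. The dim day 1 replicates 4 and 5 were the highest of the 10. Those that rose were Chia1, an acidic chitinase (1.70 ± 0.40), the lysosomal protein Lamp3 (1.45 ± 0.49, but 0.62 without dim arrays), the fatty acid desaturase Scd1 (1.35 ± 0.20), the lysozyme Lyz2 (0.96 ± 0.27), and Il33, Slc31a2 and Hc. Of 19 type 1 genes, 8 were higher and 0 lower (median 0.48), and 17 were higher without dim arrays (median 0.77). Hopx, a factor that marks type 1 cells, had levels of 5.70, 5.60, 5.64, 5.34 and 4.68 at day 14, against 4.64, 4.28, 4.09, 4.87 and 4.95 at day 1, where replicate 5 fell within the day 1 range. Clic5, an intracellular channel protein, differed by 2.08 ± 0.36 and the caveolin Cav2 by 2.39 ± 0.70, though these became 1.46 and 1.31 without dim arrays. Ager, the receptor that covers type 1 cells, had levels of 5.41, 5.33, 5.42, 5.09 and 5.02 at day 14, against 4.90, 4.07, 4.35, 6.55 and 5.74 at day 1. The groups of Ager overlapped and it did not pass (0.13 ± 0.39), while without dim arrays it did, at 0.81.

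Of 17 club and secretory airway genes 7 were higher and 0 lower (median 1.10). Scgb1a1 rose by 0.81 ± 0.27 and the aldehyde oxidase Aox3 by 2.47 ± 0.23. Bpifa1, an antimicrobial secretion of the large airways, had levels of 3.82, -0.36, 3.92, -5.46 and 0.16 at day 14, against -7.85, -3.48, -0.93, -6.65 and -4.63 at day 1. Its difference of 5.12 ± 1.64 passed with all arrays and missed without the dim ones (adjusted p = 0.10), and its arrays spread over 9.38 log2 units at day 14 and 6.92 at day 1. Ciliated genes stayed near the median, with 2 of 17 higher and 1 lower. Among 26 progenitor and lineage factors 5 were lower and 0 higher (19.2% called, against 27.4% of all genes tested). Etv4, an FGF-induced factor of branching tips, had levels of -1.77, -1.74, -1.74, -1.73 and 1.48 at day 14, against 2.68, 2.34, 2.38, 4.38 and 3.72 at day 1 and differed by -4.20 ± 0.51, Sox9 of the distal tips by -2.09 ± 0.27 and Mycn by -1.47 ± 0.27. The lineage factors Nkx2-1, Foxa2 and Gata6, named after their values were seen, were at 0.02, -0.48 and -0.23 and did not pass.

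Of 35 genes of hedgehog, Wnt, BMP and FGF signalling 10 were lower and 2 higher (median -0.41), and 13 lower and 6 higher without dim arrays. Over all genes tested 16.5% were lower and 10.9% higher. Shh, the epithelial hedgehog ligand, had levels of -1.63, -1.83, -1.81, -1.98 and -0.67 at day 14, against 0.08, -0.37, 0.01, 0.12 and 0.76 at day 1. Its groups did not overlap and it fell by 1.70 ± 0.22, and the hedgehog effectors Gli1, Gli2 and Gli3 were lower too, at -1.53, -1.06 and -1.49. Among Wnt ligands Wnt11 was lower by 1.88 ± 0.46 and Wnt5a and Wnt7b by 1.26 and 1.15 (0.61 for Wnt7b without dim arrays), while the Wnt enhancers of the R-spondin family moved apart, Rspo2 at -1.60 ± 0.37 and Rspo3 at 1.54 ± 0.44, which became 0.76 without dim arrays. The Gli and Wnt5a, Wnt7b values are named after they were seen. Of 30 genes of PDGF, VEGF and TGF-beta signalling 9 were higher and 4 lower, and 15 higher and 5 lower without dim arrays. Pdgfra, the receptor on fibroblasts that give rise to septal myofibroblasts, had levels of 3.08, 3.18, 3.32, 3.22 and 2.08 at day 14, against 1.58, 1.30, 1.61, 0.91 and 1.39 at day 1. Its groups did not overlap and it rose by 1.62 ± 0.20. Vegfa, the main growth factor of capillaries, had levels of 4.71, 4.65, 4.86, 4.64 and 3.98 at day 14, against 3.82, 3.60, 3.82, 3.14 and 3.60 at day 1 and rose by 0.97 ± 0.17. The vessel-stabilizing ligand Angpt1 and its receptor Tek rose by 2.25 ± 0.75 and 1.26 ± 0.20, with 1.04 for Angpt1 when dim arrays were left out. Vegfb, Pdgfc, Nrp2 and Tgfb2 fell by 0.90, 0.71, 0.69 and 0.68. The groups of Pdgfc and Tgfb2 overlapped, and Tgfb2 passed in 17 of the 26 settings given below.

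Of 19 smooth muscle and myofibroblast genes 11 were lower and 1 higher (median -0.98). Without dim arrays 13 were lower and 1 higher (median -0.71). The alpha smooth muscle actin Acta2 had levels of 4.90, 4.94, 4.28, 4.32 and 6.14 at day 14, against 7.12, 6.70, 6.67, 8.67 and 8.06 at day 1, and the groups did not overlap, for a difference of -2.53 ± 0.41 (5.76-fold). The dim day 1 arrays were the highest, and without dim arrays the Acta2 difference was -1.91. The enteric actin Actg2 differed by -2.85 ± 0.41, the smooth muscle coactivator Myocd by -2.17 ± 0.31 and the tropomyosin Tpm2 by -2.01 ± 0.37. Without dim arrays Actg2 was at -2.24 and Tpm2 at -1.43. The exception was Itga8, an integrin of alveolar fibroblasts, which rose by 2.23 ± 0.39. Of 19 elastic fibre genes 10 were lower and 1 higher (median -0.85). Without dim arrays 8 were lower and 4 higher (median -0.38). Fbn2, the fibrillin of growing tissue, had levels of -1.58, -1.64, -1.77, -1.90 and 1.28 at day 14, against 2.30, 2.43, 2.17, 2.89 and 2.81 at day 1 and differed by -3.64 ± 0.40. The lysyl oxidase Loxl2 fell by 2.03 ± 0.30, the fibulins Fbln2 and Efemp2 by 1.95 ± 0.33 and 1.65 ± 0.36 (1.08 for Efemp2 without dim arrays). Elastin itself (Eln), named after its values were seen, had levels of 4.71, 4.73, 5.32, 4.61 and 6.10 at day 14, against 4.34, 4.25, 4.04, 5.68 and 4.96 at day 1, a difference of 0.44 ± 0.34 that did not pass, and 0.88 without dim arrays, which did. Its mean level was 5.29 at day 4, 5.33 at day 7 and 2.52 at day 42.

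Of 23 genes of provisional and stromal matrix 11 were lower and 1 higher (median -0.71). Tenascin C (Tnc), a glycoprotein of growing tissue, had levels of -4.92, -4.63, -3.35, -4.27 and -0.71 at day 14, against -0.75, -0.46, -0.13, -0.38 and -0.71 at day 1. Replicate 5 equalled a day 1 array, the other 4 lay well below, and the difference was -3.09 ± 0.49. The hyaluronan-binding proteoglycan Vcan differed by -3.03 ± 0.45 and Tgfbi by -3.08 ± 0.45. The mean of this list was 1.92 on replicate 5, inside the day 1 range of 1.59 to 2.38, against 0.79 to 1.01 on the other day 14 arrays. Osteoglycin (Ogn) rose by 3.52 ± 0.79, and by 2.40 at its lowest over the 26 settings given below. Its day 1 levels were 0.46, 2.79, 2.78, -0.57 and -0.96, lowest on the dim replicates 4 and 5. Fibrillar collagens and their enzymes split 2 higher and 6 lower of 20, with Col5a1 at -1.56 ± 0.30, Col1a2 at -1.20 ± 0.26 and Col1a1 at -0.75 ± 0.26, which became -0.35 without dim arrays. The collagen hydroxylase P4ha1 rose by 1.35 ± 0.17. Basement membrane genes split 5 higher and 8 lower of 24. The laminin chain Lama1 fell by 2.57 ± 0.29 and the Fraser complex genes Frem2, Frem1 and Fras1 by 2.05 ± 0.24, 2.05 ± 0.36 and 1.64 ± 0.21, whereas the type IV collagen chains Col4a3 and Col4a5 rose by 1.37 ± 0.30 and 1.08 ± 0.15. Of 23 matrix proteases and inhibitors 3 were higher and 8 lower. Mmp3 had levels of 0.40, 0.44, 0.64, 0.47 and -1.34 at day 14, against -7.47, -5.47, -5.05, -5.60 and -6.45 at day 1, with 1 day 1 array well above background. The aggrecanase Adamts4 fell by 3.97 ± 0.53, the membrane protease Mmp14 by 1.59 ± 0.27 and the inhibitor Timp1 by 1.61 ± 0.32, while Timp3 rose by 1.06 ± 0.21.

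Of 31 endothelial genes 10 were higher and 1 lower (median 0.15), and 18 were higher and 2 lower without dim arrays. Median scaling turned this median to -0.11. Sema3c, a guidance ligand, had levels of 4.93, 4.70, 4.56, 4.91 and 4.37 at day 14, against 2.08, 2.48, 3.04, -0.33 and 0.25 at day 1 and rose by 3.19 ± 0.68, or 2.16 without dim arrays. The receptor Calcrl and the prostaglandin-degrading Hpgd rose by 1.97 ± 0.58 and 1.96 ± 0.37, and by 0.87 and 1.36 without dim arrays. The arterial connexin Gja5 fell by 1.24 ± 0.35, and by 0.70 without dim arrays. The pan-endothelial Pecam1 and Cdh5 did not pass, at 0.29 ± 0.25 and 0.15 ± 0.28, and both did without dim arrays, at 0.61 and 0.58. Of 13 pericyte genes 3 were higher, among them both chains of the nitric oxide receptor, Gucy1a1 (0.54 ± 0.17) and Gucy1b1 (1.29 ± 0.29), and 2 were lower, Kcnj8 (-1.35 ± 0.23) and Cspg4 (-0.80 ± 0.28). Without dim arrays Gucy1b1 was 0.73, Cspg4 -0.37 and Gucy1a1 0.25, which did not pass.

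**Figure D4:**
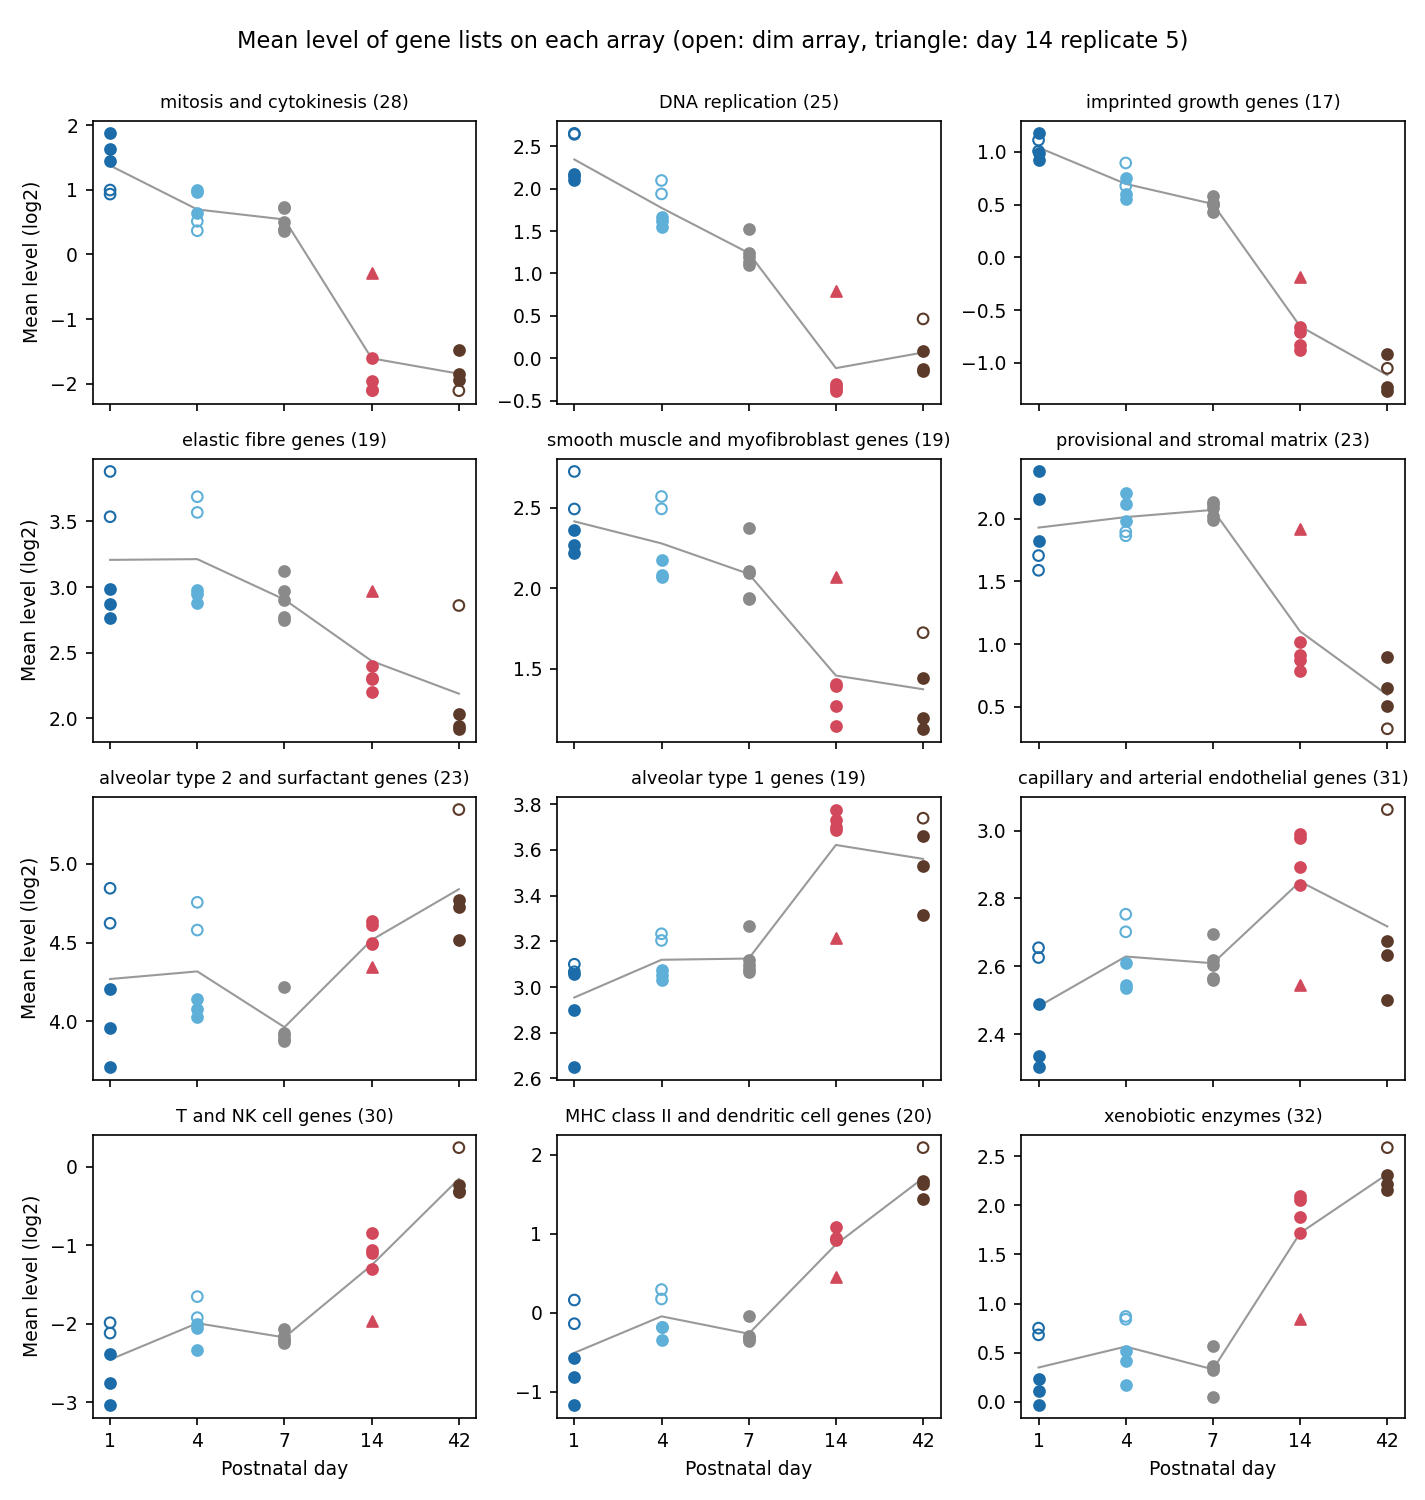
Mean level of 12 gene lists on each array (log2 signal relative to the 75th percentile of the array, number of genes in brackets) against postnatal day, with a line through the mean of each age. Open circles are dim arrays and triangles are day 14 replicate 5. The mitosis list lies at 0.93 to 1.87 at day 1 and at -2.10 to -0.28 at day 14, and the T and NK cell list at -3.03 to -1.99 and at -1.96 to -0.85.

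Genes of lymphocytes, dendritic cells and alveolar macrophages rose where they changed. The mast cell proteases Mcpt4, Cma1 and Cpa3 were lower, as were 6 of 19 neutrophil genes (31.6%, against 16.5% of all genes tested). Of 20 genes of MHC class II and dendritic cells 13 were higher and 0 lower (median 1.23), and 18 were higher without dim arrays (median 1.83). Cd209a, a lectin of dendritic cells, had levels of -0.26, -0.17, -0.06, -0.07 and -1.75 at day 14, against -3.98, -4.21, -4.39, -3.89 and -4.43 at day 1. The day 1 arrays lay within 0.54 of each other, dim ones included, and its difference of 3.72 ± 0.26 was among the 6 smallest adjusted p. Clec9a, which marks cross-presenting dendritic cells, rose by 2.86 ± 0.75 (1.81 without dim arrays). H2-Ob, a chain of the class II family, rose by 2.82 ± 0.28 and the transcription factor Irf4 by 2.13 ± 0.26. The class II chain H2-Ab1, named after its values were seen, rose by 1.34, and by 2.00 without dim arrays. Of 30 T and NK cell genes 18 were higher and 0 lower (median 1.18), and 28 without dim arrays (median 1.58). Il7r, the interleukin 7 receptor of lymphocytes, had levels of -0.80, -0.73, -0.77, 0.04 and -1.88 at day 14, against -3.65, -3.76, -2.79, -6.40 and -4.58 at day 1 and rose by 3.41 ± 0.57. The NK receptor Klrd1 rose by 3.07 ± 0.80 and the coreceptor Cd8a by 2.47 ± 0.24. At day 1 Klrd1 stood at -6.52 and -5.03 on the dim arrays, against -3.20, -3.64 and -3.11 on the others. Of 19 B cell genes 11 were higher and 0 lower (median 1.52), among them the surface protein Ms4a1 (2.63 ± 0.65, 1.69 without dim arrays), and the complement receptor Cr2 (2.64 ± 0.51). The B cell factor Pax5 and the antibody joining chain Jchain were each well above background on 5 day 14 arrays and 0 day 1 arrays, and were at least 2.83-fold and 2.26-fold higher.

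Of 23 alveolar macrophage genes 9 were higher and 0 lower (median 0.25), and 14 were higher without dim arrays. With median scaling 8 were higher and the median turned to -0.02. Beside Chil3 and Fabp1 these included osteopontin (Spp1, 2.24 ± 0.48, but -0.35 within slide 3) and Krt79 (1.81 ± 0.35). The alveolar macrophage marker Marco had levels of 3.46, 2.57, 2.80, 2.85 and 2.84 at day 14, against 2.45, 1.53, 2.48, 3.13 and 3.93 at day 1. Its groups overlapped, and it passed in 1 of the 26 settings given below. Monocyte and tissue macrophage genes split 1 higher and 1 lower of 18, and 7 higher and 2 lower without dim arrays. Neutrophil granule genes were lower for 6 of 19 and higher for 0 (median -0.65). Thus 31.6% of this list was called, against 27.4% of all genes tested. Without dim arrays 6 were lower and 1 higher, and the median was -0.29. The antimicrobial peptide Camp fell by 2.01 ± 0.49 (1.34 without dim arrays) and the stefins Stfa3 and Stfa1, near-identical genes, by 2.84 ± 0.47 and 2.79 ± 0.47. Among 21 genes of mast cells, basophils and type 2 immunity 6 were lower and 6 higher. The 6 lower ones included the mast cell proteases Mcpt4, Cma1 (-4.12 ± 0.37) and Cpa3 (-2.72 ± 0.55) and the basophil protease Mcpt8 (-3.19 ± 0.50, well above background on 2 day 14 arrays). Mcpt4 had levels of -4.16, -5.23, -3.70, -5.36 and -3.11 at day 14, against 0.32, 0.09, -0.42, 1.74 and 0.96 at day 1, with no overlap. The higher ones included Chil4, the interleukin 33 receptor Il1rl1 (1.26 ± 0.44, but 0.57 without dim arrays) and Il4 (0.90 ± 0.24, well above background on 2 day 1 arrays). Of 20 complement and acute-phase genes 7 were higher and 0 lower, among them C4b (1.93 ± 0.32).

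Interferon-stimulated genes rose for 12 of 24 and fell for 0 (median 0.82), and 18 rose without dim arrays. Ifit3, which binds viral RNA complexes, had levels of 2.72, 2.63, 2.63, 2.81 and 1.11 at day 14, against -0.57, -0.99, -0.65, -1.59 and -1.13 at day 1. The groups did not overlap and the difference was 3.37 ± 0.25 (10.3-fold). Ifit1 rose by 3.00 ± 0.43, and the guanylate-binding Gbp3 and Gbp2 by 2.75 ± 0.58 and 1.56 ± 0.23, with 1.82 for Gbp3 without dim arrays. The interferon response element (GAAA, 2 bases of any kind and GAAA again, on either strand) was present in the window of 12 of 18 such genes (66.7%), against 472 of 12622 genes tested (3.7%). It is marked in capitals in the 150 bases before the start of both Ifit genes, shown because they had the largest rises of the list.
Ifit1: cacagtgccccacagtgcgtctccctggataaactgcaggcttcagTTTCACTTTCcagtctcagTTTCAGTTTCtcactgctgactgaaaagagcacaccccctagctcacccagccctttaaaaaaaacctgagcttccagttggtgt
Ifit3: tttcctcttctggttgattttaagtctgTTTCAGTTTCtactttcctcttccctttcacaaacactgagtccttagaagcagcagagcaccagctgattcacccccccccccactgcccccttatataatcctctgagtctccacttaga
They lie at chr19:34640739-34640888 (plus strand) for Ifit1 and chr19:34583379-34583528 (plus strand) for Ifit3. The element begins 104 and 85 bases before the start of Ifit1 and 122 bases before that of Ifit3.

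Markers of tissues next to the lung varied between arrays of 1 age, and their part in the immune and stromal results was not tested. Of 17 cardiac muscle genes 3 were lower and 0 higher (17.6% called, against 27.4% of all genes tested). Their mean level was -0.54 to 1.86 on the day 14 arrays and -0.73 to 5.24 on the day 1 arrays, and 5.24 belonged to day 1 replicate 2 alone. Myl2, a ventricular myosin chain, had levels of -6.18, -5.12, -3.41, -4.97 and -3.07 at day 14, against -2.05, 7.09, -1.85, -2.63 and -2.66 at day 1. The natriuretic peptide gene Nppa stood at 7.62 on the same day 1 array and at 3.70 on day 14 replicate 3. Of 11 adipocyte genes 5 were higher (median 1.71), with list means of -1.93 to 0.52 on the day 14 arrays and -3.87 to -1.41 on the day 1 arrays. Without dim arrays 3 adipocyte genes were higher (median 1.74). Cfd had levels of 2.27, -0.06, 3.62, 0.11 and 0.68 at day 14, against -7.06, -4.35, -6.00, -6.73 and -5.02 at day 1 and the fat hormone gene Adipoq had levels of -1.37, -3.84, 0.02, -3.66 and -1.09 at day 14, against -7.69, -3.77, -5.09, -5.83 and -6.91 at day 1, which overlap. The difference of Adipoq did not pass without dim arrays (adjusted p = 0.078). Of 7 thymus genes 3 were higher, and Rag1, which cuts antigen receptor genes, stood at -4.29, -5.88, -0.85, -5.29 and -4.24 at day 14, against -6.49, -6.01, -5.75, -6.66 and -6.72 at day 1. Day 14 replicate 3 had the highest thymus mean of all 10 arrays, at -0.90. The T and NK cell mean was -1.96 to -0.85 over the day 14 arrays, and the T and NK counts included Cd8a and Themis, which thymus also expresses.

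Of 32 xenobiotic enzymes tested 18 were higher and 1 lower (median 1.12), and 22 higher and 1 lower without dim arrays (median 1.39). Fmo2, the flavin monooxygenase of lung, had levels of 3.61, 3.65, 3.69, 3.73 and 1.00 at day 14, against 0.51, 0.23, 0.10, -1.67 and -0.82 at day 1, and rose by 3.47 ± 0.47. The sulfotransferase Sult1d1, well above background on 4 day 14 arrays and 0 day 1 arrays, was at least 3.32-fold higher. Its day 14 levels were uneven, from -5.85 to -1.61. Over the whole cytochrome P450 family 20 of 57 genes were higher and 1 lower, with Cyp2b9 at 3.46 ± 0.44 and Cyp2a4 at 3.38 ± 0.91. Cyp2a4 stood at 3.70, 0.08, 3.43, -1.73 and -1.52 at day 14, so that replicates 1 and 3 lay far above the rest. Its day 1 arrays lay between -2.96 and -1.89. The P450 gene that fell was Cyp11a1, which starts steroid synthesis (-2.44 ± 0.39), with a signal well above background on 1 day 14 array. The alcohol dehydrogenase Adh1 fell by 1.62 ± 0.33. Of 9 carboxylesterases 6 were higher and 0 lower. Antioxidant enzymes split 4 higher and 2 lower of 18. The extracellular superoxide dismutase Sod3 had levels of 5.32, 5.45, 5.35, 5.25 and 4.32 at day 14, against 2.03, 1.80, 2.13, 3.90 and 3.31 at day 1, with no overlap, and rose by 2.50 ± 0.38, and by 3.15 without dim arrays. The extracellular peroxidase Gpx3 rose by 1.95 ± 0.46.

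Of 23 genes of cholesterol synthesis 10 were lower and 1 higher (median -0.65), including Sqle (-1.38 ± 0.26) and Mvd (-1.27 ± 0.42), enzymes of the middle and early steps. Without dim arrays 13 were lower, and these genes stood at -1.06 and -0.56. Of 30 genes of lipid handling 6 were higher, among them the fatty acid transporter Cd36 (2.24 ± 0.44, 1.46 without dim arrays) and the cholesterol exporter Abca1 (1.89 ± 0.34), and 1 was lower. Thus 23.3% of the lipid genes were called, against 27.4% of all genes tested. Without dim arrays 11 lipid genes were higher and 0 lower. In the hypoxia list 5 of 24 were lower and 2 higher (29.2% called, against 27.4% of all genes tested). Without dim arrays this balance turned, with 4 lower and 6 higher (median -0.01). Egln3, an oxygen-sensing hydroxylase that hypoxia induces, had levels of -4.60, -4.89, -3.65, -5.13 and -2.23 at day 14, against 0.04, -0.09, -0.38, 0.66 and 0.62 at day 1 and fell by 4.27 ± 0.44.

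Of 16 glucocorticoid-responsive genes 6 were higher and 1 lower (median 0.82). Zbtb16, a zinc finger gene that glucocorticoids induce, had levels of 1.41, 2.77, 1.35, 2.70 and 0.40 at day 14, against -1.70, -1.79, -1.96, -1.79 and -1.28 at day 1, with no overlap, and rose by 3.43 ± 0.35 (10.8-fold). Klf9 rose by 3.05 ± 0.37, Crispld2 by 2.11 ± 0.38 and Hsd11b1, which regenerates active glucocorticoid, by 1.98 ± 0.27. The metallothionein Mt2 fell by 0.82 ± 0.29, but not past the test without dim arrays. In the retinoid list 4 of 18 were higher and 2 lower. Besides Lrat, the retinal dehydrogenase Aldh1a1 rose by 1.57 ± 0.24. Of 19 clock genes 9 were higher and 2 lower (median 0.90). The output factor Dbp had levels of 4.94, 4.98, 4.47, 4.67 and 3.05 at day 14, against 1.62, 1.76, 1.44, 3.43 and 2.75 at day 1 and the repressor Nr1d1 had levels of 0.15, 0.14, 0.15, -0.13 and -1.40 at day 14, against -3.05, -2.67, -2.68, -1.40 and -1.77 at day 1. Dbp rose by 2.22 ± 0.41, Nr1d1 by 2.09 ± 0.36 and Nr1d2 by 2.93 ± 0.77 (1.72 without dim arrays), while Nfil3, which opposes Dbp at its sites, fell by 1.82 ± 0.38 and the activator Arntl by 0.81 ± 0.28. On day 14 replicate 5 Arntl stood at 0.33, above all of its day 1 arrays. The labels give no hour of sampling, so age and time of day cannot be told apart for the clock genes. Among 19 immediate early and heat shock genes 4 were higher and 0 lower (21.1% called, against 27.4% of all genes tested), and 8 were higher without dim arrays. Fos stood at 2.01 ± 0.47 and Hspa1a at 1.86 ± 0.54, genes that also respond to tissue handling. On day 14 replicate 5 the level of Hspa1a was -0.79, within its day 1 range.

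**Figure D5:**
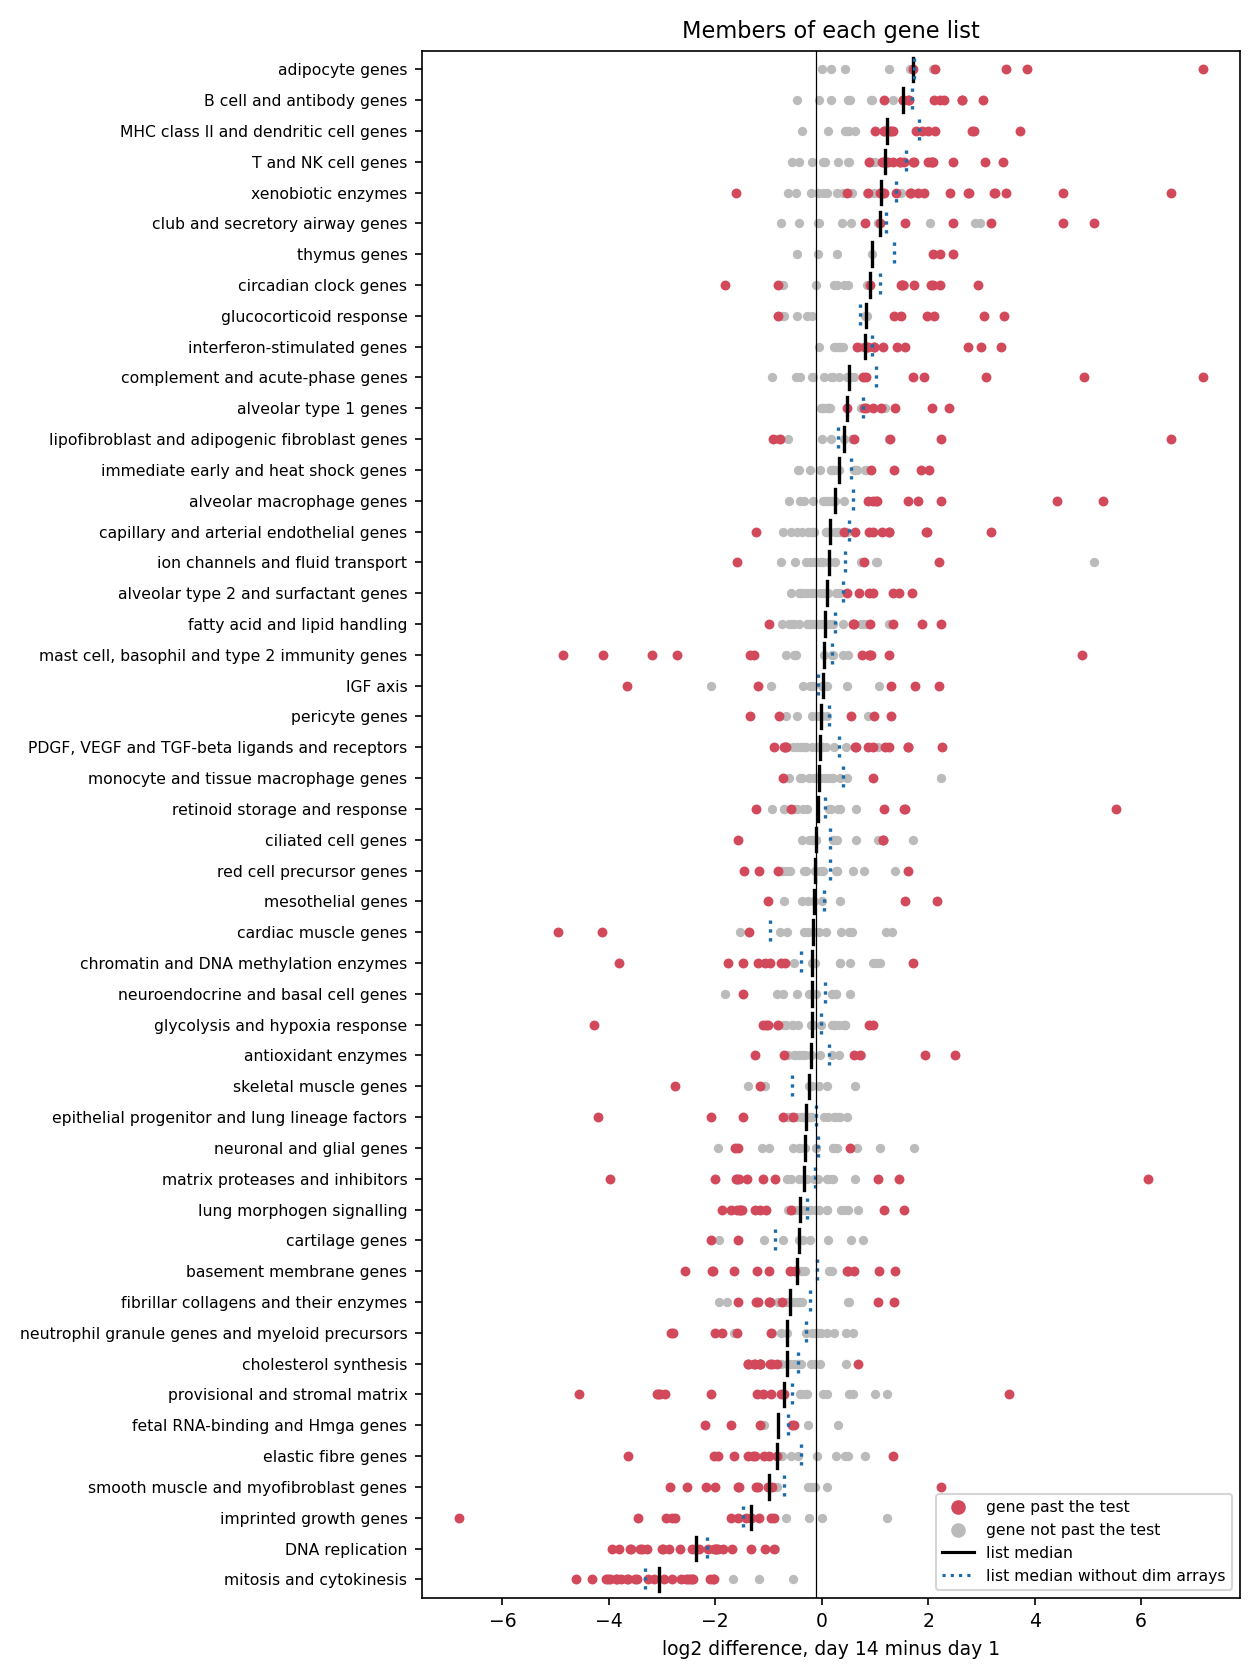
Each point is 1 gene of a list, placed by its log2 difference (day 14 minus day 1) and coloured by whether it passed the test, with the list median as a black bar, the median without dim arrays as a blue dotted bar and the median of all genes (-0.11) as a thin line. Lists are sorted by median, from 1.71 for adipocyte genes to -3.06 for mitosis.

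Gene families of the cell's basic machinery were lower in one direction. Of 77 mitochondrial ribosomal protein genes 45 were lower and 0 higher (median -0.74), and 48 were lower without dim arrays (median -0.36). Of 76 cytosolic ribosomal protein genes 38 were lower and 0 higher (median -0.68). This family depended most on the arrays and the scaling, with 22 lower without dim arrays (median -0.26), 15 with quantile normalization (median -0.13) and 51 with median scaling (median -0.95), and 0 higher under these. Leaving out 1 array at a time gave 11 to 58 lower, with 11 without day 1 replicate 4 or 5 and 58 without day 1 replicate 3. Of 37 complex I genes 24 were lower (median -0.82) and of 23 tubulins 12 (median -0.86), with 0 higher in each. Rps2 had levels of 5.99, 5.89, 5.68, 5.84 and 6.38 at day 14, against 6.87, 6.56, 6.44, 8.68 and 7.87 at day 1, where the dim day 1 arrays were the highest, and differed by -1.33 ± 0.39, or -0.67 without dim arrays. Among 30 splicing factors of the Srsf and Hnrnp families 12 were lower and 0 higher, but their median of -0.40 turned to 0.06 in the authors' deposited log2 table. Of 21 Hox genes, the factors that set body position, 9 were lower and 0 higher (median -0.64), with Hoxb8 at -1.70 ± 0.41 and Hoxb2 at -1.45 ± 0.31.

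Larger families spread both ways. Of 306 solute carriers 43 were higher and 34 lower (25.2% called, against 27.4% of all genes tested). These counts became 94 and 34 without dim arrays, where 21.2% of all genes were higher and 20.1% lower. The sulfate transporter Slc13a4 rose by 3.86 ± 0.66 and the fatty acid transporter Slc27a6 fell by 2.96 ± 0.30. On day 14 replicate 5 Slc13a4 stood at -3.65, within its day 1 range of -4.05 to -3.05. Of 343 Zfp genes 21 were higher and 23 lower (12.8% called), and their median of 0.46 fell to 0.09 without dim arrays. Among immune receptors 13 of 36 interleukin receptors and 9 of 15 chemokine receptors were higher and 0 lower in either, against 10.9% of all genes higher. Il22ra2, a soluble receptor that binds interleukin 22, had levels of -1.05, -0.76, -1.19, -0.88 and -6.09 at day 14, against -6.79, -6.42, -6.31, -6.73 and -6.81 at day 1, where 4 day 14 arrays lay far above day 1 and replicate 5 lay just above it. It was well above background on 0 day 1 arrays and was at least 10.6-fold higher at day 14. Of 37 serpins 11 were higher and 0 lower. Of 38 collagen chains 7 were higher and 14 lower, from Col8a1 at 1.97 ± 0.52 to Col25a1 at -3.20 ± 0.65.

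Of the remaining lists, among 19 chromatin and DNA methylation enzymes 8 were lower and 1 higher, and among 15 lipofibroblast genes 4 were higher and 2 lower. Higher and lower genes numbered 2 and 1 of 21 ion channel and fluid transport genes, 1 and 3 of 19 red cell genes, 1 and 2 of 17 neuronal genes and 2 and 1 of 9 mesothelial genes. They numbered 0 and 1 of 12 neuroendocrine and basal cell genes, 0 and 2 of 11 cartilage genes, 0 and 2 of 10 skeletal muscle genes and 0 and 0 of 4 sex-linked genes. Over all genes tested 10.9% were higher and 16.5% lower. Without dim arrays 8 ion channel and fluid transport genes were higher and 1 lower, and 3 red cell genes were higher and 2 lower.

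Some calls on the genes named above were lost when 1 array was left out. Leaving out day 1 replicate 4 ended the calls of Rps2 (-0.98), Cav2 (1.95), Lamp3 (1.10), Angpt1 (1.79), Col1a1 (-0.51), Gucy1a1 (0.37), Cspg4 (-0.56), Il1rl1 (0.91), Mvd (-0.91), Mt2 (-0.58) and Bpifa1 (4.64). Leaving out day 1 replicate 5 also ended these, apart from Rps2 and Bpifa1. Scgb1a1 (0.64 without day 1 replicate 2) and Arntl (-0.69 without day 14 replicate 4) lost their calls when any of several arrays was left out, as did all of these except Rps2 and Cav2. Among others named above, Igfbp3, Igfbp6, Gpx3, Crispld2, Wnt11, Stfa1 and Col25a1 lay within their day 1 range on day 14 replicate 5. So did Frem1, Rspo2, Timp3, Lyz2, Mycn, Camp, Nfil3, Hspa1a, Hoxb2, Hoxb8 and Col8a1. These genes are examples and not a complete list.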

How the data were processed

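Total RNA of 24 whole-lung samples of mice of 5 postnatal ages was hybridized to 1-colour Agilent arrays. The scanner files were deposited by the authors as background-subtracted intensity per spot, made with Agilent Feature Extraction (the file headers give version 10.7.3.1, the submitters' processing notes 10.7.1.1). The authors' deposited table gives log2 values whose normalization is not given in the sources used here, and it served as an alternative. The flags for spots well above background were deposited by the authors as a score of 0 or 1.

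Each array's log2 intensity was centred on its 75th percentile over non-control spots, and spots of a probe were averaged. Probes were named from the files and RefSeq, and the brightest probe stood for a gene. Genes well above background on at least 4 of 24 arrays were tested (15895 of 19722) with limma 3.58.1 in R 4.3.3, with a mean for each age and the difference of day 14 minus day 1, Benjamini-Hochberg adjusted over all genes. All adjusted p-values in the text come from this limma fit, or from the same fit without the dim arrays where the text says so. The script was tested on simulated data. Precision is limited by the number of arrays.

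The genes printed were chosen by rule. They are the 12 largest rises and falls without overlap, well above background on 3 of 5 arrays of each age, the 6 brightest switched genes each way, the 6 smallest adjusted p, up to 4 members of each of 51 lists and 2 of each of 32 families in each direction, and defining markers. Genes outside the rule are said to be, and a few results are not reported here. The members, lists and families were chosen with earlier results of these data known. Same-numbered replicates were not paired, since correlations of their deviations ran from -0.31 to 0.08. Alternatives covered background, scaling, filters, probe choice, samples, array weights, slide and replicate blocks.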

Additional observations from a re-analysis of the deposited data

Results flagged for a closer look

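Within each age the highest and lowest array were checked for a gap to the nearest other array above Dixon's critical value of 0.71 of the range. Of 186 values checked, 43 were past it, of which 38 lay at day 14 replicate 5, 4 at day 14 replicate 3 and 1 at day 1 replicate 2. Chance alone marks about 1 in 20 groups. The cause of the 38 was not tested.

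Day 14 replicate 5 stood apart from the other 4 day 14 arrays in the mean level of 14 gene lists. The list means on that array were those of DNA replication (0.79, nearest other -0.30), MHC class II and dendritic cell genes (0.45, nearest other 0.92), alveolar type 1 genes (3.21, nearest other 3.69), basement membrane genes (3.16, nearest other 2.90) and chromatin and DNA methylation enzymes (0.36, nearest other 0.17). Others were elastic fibre genes (2.97, nearest other 2.40), glucocorticoid response (1.67, nearest other 2.55), immediate early and heat shock genes (1.20, nearest other 2.01), interferon-stimulated genes (-0.11, nearest other 0.56) and matrix proteases and inhibitors (0.24, nearest other -0.14). The last were mitosis and cytokinesis (-0.28, nearest other -1.60), neutrophil granule genes and myeloid precursors (0.45, nearest other -0.25), provisional and stromal matrix (1.92, nearest other 1.01) and smooth muscle and myofibroblast genes (2.07, nearest other 1.41). 

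The same array stood apart for 24 genes, by level. It held Inmt (4.93, nearest other 7.79), Lrat (-2.60, nearest other 0.34), Gm4956 (0.22, nearest other 4.29), Serpina3n (-2.25, nearest other 0.22) and Ms4a4d (-4.14, nearest other -0.46). To these were added Cstdc2 (-0.97, nearest other 0.91), Fabp1 (-0.33, nearest other 1.35), Cxcl14 (1.89, nearest other 4.78), Gria1 (-1.78, nearest other -0.53) and H1f5 (-0.22, nearest other -1.95). It further held H2ac4 (-0.72, nearest other -2.29), Pimreg (0.44, nearest other -2.07), Kcne1l (-1.61, nearest other -5.04), Lrrc15 (0.027, nearest other -4.19) and Iqgap3 (-1.12, nearest other -3.84). There followed Fam83d (-2.74, nearest other -5.03), Wfdc10 (-3.78, nearest other -0.72), Klra4 (-3.41, nearest other -1.83), Klra8 (-4.22, nearest other -2.21) and Prmt8 (-5.15, nearest other -2.22). The rest were Eppin (-3.94, nearest other -2.54), Cd209a (-1.75, nearest other -0.26), Rad54l (-1.40, nearest other -2.66) and Ticrr (-1.56, nearest other -3.31). 

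Day 14 replicate 3 had 79.7% of spots well above background, against 64.5% on the nearest other array. It was also the highest or lowest day 14 array for the mean of thymus genes (-0.90, nearest other -2.50), Mcpt-ps1 (-5.62, nearest other -7.24) and Magel2 (-4.91, nearest other -4.40). Day 1 replicate 2 stood apart in the mean level of cardiac muscle genes, at 5.24 against 0.81 on the nearest other day 1 array.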

How the results depend on the processing

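The count of 4353 genes (1725 higher, 2628 lower) moved with the arrays used and their weights. Without the dim arrays it was 6564, with 3373 higher (51.4% of calls, against 39.6%). With array weights it was 7655, with 3972 higher and 3683 lower. Without dim arrays and day 14 replicate 5, chosen after seeing the data, it was 7399, with 3739 higher and 3660 lower. With days 14 and 1 alone it was 2423, with 1018 higher and 1405 lower. Higher genes numbered 924 of 4176 with median scaling (22.1%) and 2757 of 5781 in the authors' deposited log2 table (47.7%). Leaving out 1 array at a time gave 3158 (without day 1 replicate 5) to 5665 genes (without day 1 replicate 3), 1312 to 2195 higher and 1738 to 3470 lower. The replicate block gave 4195 genes, of which 4150 were shared, and the slide block 3984. All 41 genes chosen for size, switching or smallest p passed in each of the 25 or 26 settings that tested them, as did 216 of the 337 named genes in the 24 to 26 that tested them. The 41 were chosen on these same arrays for their clear differences, so that passing again was likely in advance. A few of the named genes turned in sign. Sftpb (-0.15, not past the test) was 0.44 with quantile normalization, 0.51 in the authors' deposited log2 table, 0.39 without dim arrays, 0.43 with array weights, 0.43 without dim arrays and day 14 replicate 5, and -0.35 to 0.14 when 1 array was left out. Sftpc was 0.32 in the authors' deposited log2 table. Within slide 3, which holds 2 day 14 arrays and 1 day 1 array, Msln was 0.21, Sox4 was 0.0055 and Spp1 was -0.35. The cause was not tested. Genes near background, and those brightest on the dim day 1 arrays, are the least certain.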
